A study of Mus musculus with 55 samples.

Results

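Line IL-519 is 1 of the 29 lines of the Collaborative Cross (CC) whose livers were sequenced, and 2 of the 55 male mice came from it. CC lines descend from crosses among a fixed set of founder strains, each line being bred to near homozygosity. The 2 mice were chosen by their strain label alone and were compared with the 53 mice of the 28 other lines. A gene was then taken as a member when both IL-519 mice lay above, or both lay below, all 53 others. All mice were untreated, had free access to chow and water, and carried no transgene, induced deletion or agent. The IL-519 mice were 8 weeks old, the youngest of the series, although mice of several other lines were 8.1 weeks old (8.1 to 11.9 weeks in all the others). They weighed 19.9 and 21.5 g, against 12.8 to 38 g. Mice of an inbred line share nearly 1 genotype, and the labels do not say whether the pair came from 1 litter or cage. The p-values given with fold changes measure only the spread between the line mates sampled, with 1 estimate shared by all lines.

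Each recombinant inbred line fixes its own mosaic of founder alleles and can therefore lie at the edge of the panel for a given gene. The liver is made up mainly of hepatocytes, which metabolise nutrients, hormones and drugs, with sinusoidal endothelial cells, Kupffer cells, stellate cells and bile duct cells around them. Drug metabolism is set in part by nuclear receptors such as the constitutive androstane receptor CAR (gene Nr1i3), while immediate early genes such as Fos are transcribed within minutes of a stimulus.

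The IL-519 libraries held 32063319 and 30421968 estimated fragments, within the range of the other mice (20542671 to 33953036). Their profiles had a Spearman correlation of 0.987 over genes, higher than the mean correlation with any other line (0.904 to 0.943), but differed by more than counting noise. In lines IL-1052 and IL-2750 line mates correlated as weakly as 0.931 and 0.926 while mice across these lines reached 0.977, so counts are also given without them. The summed level of the hepatocyte markers was 57376 and 61080 FPKM against 40236 to 96206 FPKM (median 64917), where FPKM are fragments scaled to the length of the transcript and the size of the library. Major urinary protein (Mup) genes of chromosome 4 took 21.2% of the fragments in both IL-519 mice, against 2.5% to 28.2% in the other mice (median 14.7%).

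Genes with a highest FPKM of at least 2 were tested, 11284 in all. Both IL-519 mice lay above all other mice in 15 genes (0.133% of those tested) and below all of them in 94 genes (0.833%). FPKM are shares of all fragments. The median difference over all genes was -0.13 on log2(FPKM + 1), whereas it was 0.01 on the log2 scale with the TMM normalization of edgeR. On counts scaled to TMM library sizes, 42 genes lay above and 37 below, so that 13.8% of the genes outside were above with FPKM and 53.2% with TMM. All 15 members above and 31 of the 94 below were outside on both scales. Among the 15 other lines with 2 mice, the same rule counted 0 to 389 genes above (median 73) and 2 to 554 below (median 21), with 6 lines above the total of 109 in IL-519. Without IL-1052 and IL-2750, 17 genes lay above and 133 below.

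**Figure D1:**
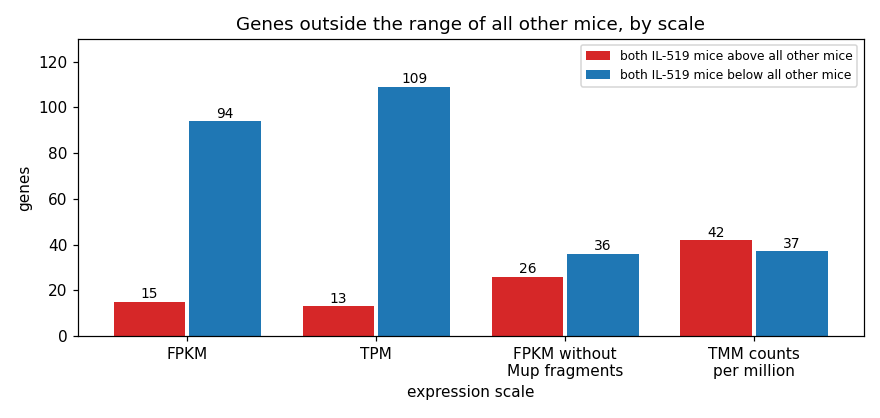
Number of genes (y axis) in which both IL-519 mice lay above (red) or below (blue) all 53 other mice on 4 scales of expression (x axis). The genes above rose in number from 15 with FPKM to 42 with TMM-scaled counts, and those below dropped from 94 to 37.

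The fold change of IL-519 over the unweighted mean of the 28 other lines was estimated with the quasi-likelihood test of edgeR. Its error is the spread between line mates, pooled over the lines. At an adjusted p under 0.05, 989 genes (8.76%) were called higher and 584 (5.18%) lower. All 15 members above (0.133%) and 80 of the 94 below (0.709%) were called in the same direction. The range and the test used the same values, so that the test adds no independent support to the members. When the counts of each line were summed and IL-519 was set against the spread among the other lines, 4 genes were called, Cav1, Gdf15 and Gm12616 (higher) and Gm14306 (lower), and 249 had an unadjusted p under 0.05. The pseudogene Gm12616 passed the filter on low values only through IL-519, so that its call follows from that selection. The calls below therefore say that IL-519 differed from the average line by more than line mates differ, and not that it exceeded the variation among lines.

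Of the members above the range, Cav1 (chr6:17256335-17291452, NCBI build 37) encodes caveolin-1, the coat protein of caveolae. It was at 15.1 and 18.5 FPKM in the IL-519 mice and at 0.42 to 11.2 FPKM in the others, with a median of 1.12. Both IL-519 mice were high and the groups did not overlap (log2 fold change 3.79 ± 0.38, edgeR adjusted p = 1.91e-08). Sdpr, which encodes the caveolar protein cavin-2, lay on the other side. It was at 1.0 and 1.4 FPKM against 1.47 to 9.04 FPKM, below all other mice on the FPKM but not on the TMM scale (log2 fold change -1.23 ± 0.25, edgeR adjusted p = 0.00115).

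Gdf15 (chr8:73153292-73156355), a secreted factor known to rise in stressed cells, was at 10.6 and 6.47 FPKM against 0.22 to 4.11 FPKM with a median of 0.93. The IL-519 mice differed between themselves but both exceeded the others (log2 fold change 3.20 ± 0.45, edgeR adjusted p = 6.2e-06). Epha2, an ephrin receptor tyrosine kinase, was at 10.4 and 9.9 FPKM against 1.2 to 9.08 FPKM (log2 fold change 2.05 ± 0.24, edgeR adjusted p = 3.1e-07). The margin to the highest other mouse was small and the median of the others was far lower, at 3.03 FPKM. The summed level of the listed stellate cell and fibroblast markers was 74.3 and 69.3 FPKM against 19.7 to 152 FPKM (median 88.4).

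Tcf7, a transcription factor of the Wnt pathway, was at 2.58 and 2.29 FPKM and the highest other mouse at 2.28 FPKM (log2 fold change 1.29 ± 0.19, edgeR adjusted p = 1.11e-05). Trim68, a gene of the tripartite motif family, was at 2.25 and 2.49 FPKM against at most 1.88 FPKM. Trim68 too passed the filter on low values only through IL-519, so no test is given for it. The predicted gene Gm3150 was at 20.1 and 19.4 FPKM against 0 to 9.09 FPKM, and Gm600 at 3.45 and 4.96 FPKM against 0 to 2.83 FPKM. Both are predicted genes whose function is not given here, and neither overlapped with the other mice. The pseudogene Gm13342 and a gene identifier with no match in the annotation were further members outside the Mup cluster.

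Major urinary proteins bind pheromones and are secreted in quantity by the male liver. Mup15 was at 23296 and 23964 FPKM against a median of 2.68 and a maximum of 16195 FPKM, and all mice of 7 lines were listed at 0. Mup14 was at 19709 and 17828 FPKM against 64.97 to 17236 FPKM with a median of 3729. With Mup-ps14 and Gm13775 they lay in 0.501 Mb of chromosome 4 (60961055 to 61462320). There 10 of 13 tested genes were called higher and 0 lower, against 8.76% and 5.18% of all genes. The window was drawn around these 4 members, which are among the 10, so the count is no independent support. Elsewhere in the Mup cluster Mup6, Mup7, Mup11, Mup20 and Gm13773 were called higher and only Gm12909 lower. The rest, Mup1 and Mup12 among them, were not called. Mup14 and Mup15 overlap in the annotation and the Mup genes are near-identical copies, so that the division of fragments among them is uncertain.

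**Figure D2:**
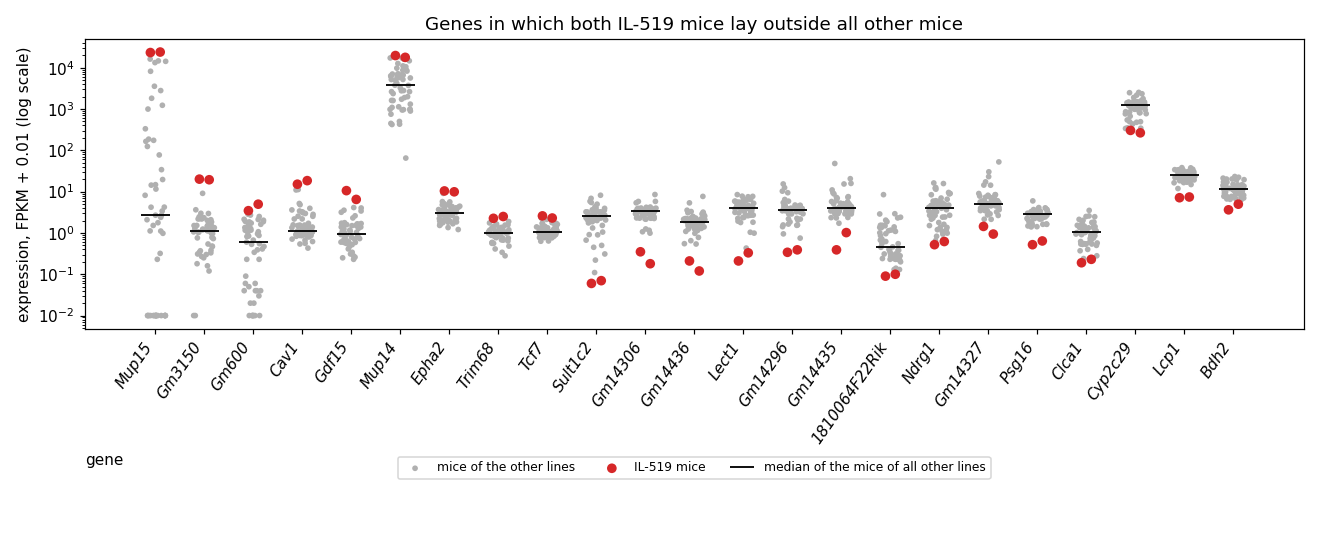
Expression of protein-coding members in every mouse (y axis, FPKM + 0.01, log scale), with IL-519 in red, the other lines in grey and a black bar at the median of the 53 other mice. From Mup15 to Tcf7 both red points lie above all grey points, and from Sult1c2 to Bdh2 both lie below.

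Among the members below the range, Lcp1 (chr14:75530908-75630649) had both a wide gap and a small error. It encodes L-plastin, an actin-bundling protein best known from leukocytes. It was at 7.12 and 7.41 FPKM against 11.9 to 38.1 FPKM, with a median of 25.4 (log2 fold change -1.50 ± 0.09, edgeR adjusted p = 6.72e-13). Of the 12 Kupffer cell markers none was called, and their summed level was 60.9 and 75.1 FPKM against 20.6 to 542 FPKM (median 116). Their part in the Lcp1 difference was not tested. Cd81, a tetraspanin of the plasma membrane, was at 40.4 and 43.02 FPKM against 57.8 to 155 FPKM (log2 fold change -0.99 ± 0.12, edgeR adjusted p = 8.82e-07).

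Enzymes of detoxification and intermediary metabolism were among the members below. Cyp2c29, an abundant hepatic cytochrome P450, was at 304 and 265 FPKM against 338 to 2527 FPKM with a median of 1218 (log2 fold change -1.73 ± 0.27, edgeR adjusted p = 3.15e-05). Gsta4, a glutathione transferase that conjugates products of lipid peroxidation, was at 21.01 and 19.9 FPKM against 30.02 to 229 FPKM (log2 fold change -1.42 ± 0.21, edgeR adjusted p = 1.57e-05). The sulfotransferase gene Sult1c2 was at 0.05 and 0.06 FPKM against 0.10 to 8.17 FPKM with a median of 2.53. Bdh2, a hydroxybutyrate dehydrogenase, was at 3.62 and 4.96 FPKM against 6.48 to 23.2 FPKM. All of these were also below the other mice on the TMM scale.

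Other genes were below the range on the FPKM scale only. Tdo2, which opens the kynurenine pathway of tryptophan breakdown, was at 279 and 299 FPKM against 303 to 749 FPKM (log2 fold change -0.65 ± 0.15, edgeR adjusted p = 0.00286). Hsd17b13, a protein of lipid droplets, was at 170.5 and 165 FPKM against 175 to 535 FPKM (log2 fold change -0.76 ± 0.24, edgeR adjusted p = 0.0321). For Adh5, a class III alcohol dehydrogenase, the values of 163 and 162 FPKM lay under the 165 to 289 FPKM of the others, but the difference did not pass the test (log2 fold change -0.15 ± 0.08, edgeR adjusted p = 0.204). Genes on either side of the rule were close. Acp1, at 13.8 and 14.8 FPKM against a lowest other value of 14.8, was counted. In 139 genes not counted, a single other mouse was at or below the higher IL-519 mouse, and in 16 a single other mouse was at or above the lower one.

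Ndrg1, known as a hypoxia- and differentiation-related gene, was at 0.51 and 0.61 FPKM against 0.64 to 16.2 FPKM with a median of 3.96 (log2 fold change -2.59 ± 0.43, edgeR adjusted p = 9.36e-05). Lect1, which encodes chondromodulin, was at 0.20 and 0.32 FPKM against 0.42 to 8.47 FPKM (log2 fold change -3.33 ± 0.40, edgeR adjusted p = 6.82e-07). Its neighbour Gm10845, within the same 0.231 Mb of chromosome 14, was at 0.68 and 0.69 FPKM against 0.89 to 4.89 FPKM. The pair was low in both neighbours. The pseudogene Gm11942 was at 0.57 and 0.81 FPKM, where the others ranged from 1.17 to 193 FPKM with a median of 105. Slc38a6, a gene of an amino acid transporter family, was at 8.78 and 8.47 FPKM against 10.2 to 61.1 FPKM, and the pregnancy-specific glycoprotein gene Psg16 was at 0.51 and 0.63 FPKM against 1.39 to 5.96 FPKM.

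Thnsl2, a threonine synthase-like gene, was at 8.2 and 7.28 FPKM against 8.98 to 42.7 FPKM (log2 fold change -1.41 ± 0.20, edgeR adjusted p = 7.54e-06). Usp39, a spliceosome component in the same 1.30 Mb of chromosome 6, was at 4.41 and 3.77 FPKM against 4.83 to 10.8 FPKM. Ggcx, the vitamin K-dependent carboxylase of clotting factors, lay there too, at 9.16 and 10.4 FPKM against 10.7 to 23.2 FPKM, and was inside the range on the TMM scale. Of the 22 genes tested in this stretch, 3 were called higher and 3 lower, against 8.76% and 5.18% of all genes. The 3 called lower were the members around which the stretch was drawn.

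Of 107 members with a known position, 28 lay within 2 Mb of another member, in 10 stretches. The stretch with the most members ran from 173901809 to 177640489 on chromosome 2 and held 7, all below the range. At its edge, Stx16, a membrane fusion gene, was at 3.24 and 3.16 FPKM against 3.26 to 6.58 FPKM. The other members were predicted genes, Gm14443 and Gm14296 among them. Gm14306 was at 0.34 and 0.17 FPKM against 0.98 to 8.51 FPKM (log2 fold change -3.62 ± 0.50, edgeR adjusted p = 5.01e-06). Gm14436 was at 0.20 and 0.11 FPKM against 0.53 to 7.66 FPKM, and Gm14435 at 0.38 and 1.01 FPKM against 1.71 to 48.03 FPKM. Gm14327 was at 1.43 and 0.93 FPKM against 2.13 to 52.5 FPKM. The pair was below every other mouse in each. Gm14296 and Stx16 were inside the range on the TMM scale. Of the 47 genes tested in the stretch, 16 were called lower and 0 higher, against 5.18% and 8.76% of all genes. Their median log2 fold change was -1.13 against 0.01 over all genes. Of the 38 with Gm symbols, 13 were called lower. The stretch was drawn around its 7 members, which are among the 16, so these counts and the median are no independent support. Fragments of similar copies among these genes could be divided unevenly, and Gnas, a G protein gene of the stretch, was not called (139 and 146 FPKM against a median of 160.2).

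**Figure D3:**
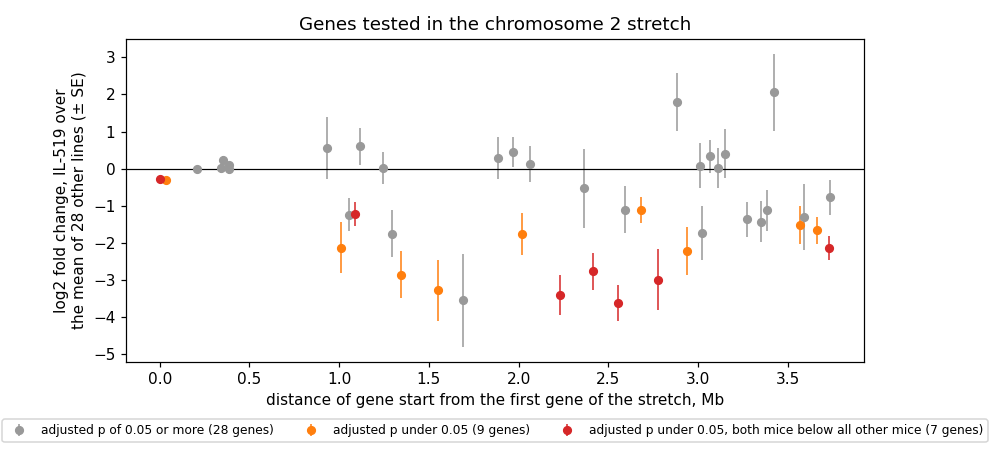
Log2 fold change of IL-519 over the mean of the 28 other lines (y axis, bars are SE) for genes tested in the chromosome 2 stretch, by distance of the gene start from the first gene (x axis, Mb). Of the 47 genes 44 are drawn, leaving out 3 with an IL-519 mouse at 0, and the 16 colored points, all below 0, were called lower.

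Isoform shares, the percent of a gene's expression assigned to a transcript, were compared in 6158 genes with more than 1 isoform and at least 1 FPKM in every mouse. In 52 genes (0.844%) both IL-519 mice lay outside the other mice. None lay 10 or more percentage points beyond. For Ehbp1, which encodes a protein that links vesicles to actin, 1 isoform took 62.7% and 51.9% of expression against 0% to 45.4% (median 11.4%), on 242 and 233 fragments of the gene. For Adarb1, an RNA editing enzyme, it was 77.9% and 75.01% against 0% to 71.8% (median 9.43%). For Thnsl2, which was also below the range in total expression, it was 22.3% and 20.6% against 25.02% to 86.3% (median 71.8%). For Sepx1, a methionine sulfoxide reductase, it was 70.9% and 71.3% against 74.5% to 89.9% (median 85.7%) on 7245 and 6854 fragments. The first 2 were higher in IL-519 and the last 2 lower. With only 1 of the IL-519 mice, the rule counted 447 or 460 genes.

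CAR responds to foreign compounds by inducing cytochromes P450, conjugating enzymes and transporters. Its gene Nr1i3 (chr1:173144101-173150832) was at 14.4 and 13.1 FPKM in IL-519 against 13.4 to 104 FPKM with a median of 40.4. IL-519 had the lowest of the 29 line means, but 1 other mouse lay between the IL-519 mice, so Nr1i3 was no member (log2 fold change -1.42 ± 0.30, edgeR adjusted p = 0.00139). Nr1i3 was picked because earlier results of these data had it lowest in IL-519, so its rank and its call follow from that choice. Its isoform shares were inside the range. Of 32 CAR target genes tested, 1 was called higher and 7 lower, against 8.76% and 5.18% of all genes, with a median log2 fold change of -0.27 against 0.01. With either IL-519 mouse left out 1 was called lower, and with line sums 0 were.

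Cyp2c29 was the only 1 of these targets outside the range. Cyp2b10, the classical CAR target, was at 0.69 and 0.62 FPKM against 0.07 to 71.4 FPKM with a median of 7.41 (log2 fold change -2.71 ± 0.88, edgeR adjusted p = 0.0368). Cyp2c37 was at 14.7 and 12.4 FPKM against 10.2 to 217 FPKM with a median of 57.8 (log2 fold change -1.87 ± 0.49, edgeR adjusted p = 0.00943). The related Cyp2c50 and Cyp2c54 were at 138 and 119 and 62.5 and 61.3 FPKM against medians of 301 and 153. In all of these the IL-519 pair was in the lower part of the range and overlapped with other mice. Neighbouring copies in the Cyp2b and Cyp2c families may share fragments.

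Abcc3, a transporter that exports conjugates into blood, was at 12.7 and 12.7 FPKM against a median of 28.9 (log2 fold change -1.10 ± 0.31, edgeR adjusted p = 0.0159). Slco1a4, an uptake carrier for organic anions, was at 3.62 and 3.07 FPKM against a median of 8.24 (log2 fold change -1.13 ± 0.36, edgeR adjusted p = 0.0344). Sult5a1, a sulfotransferase, was the target called higher, at 70.1 and 107 FPKM against a median of 23.8 (log2 fold change 2.26 ± 0.23, edgeR adjusted p = 2.27e-08). Cyp3a11 and Ugt1a1 were not called, with 2235 and 1498 FPKM against a median of 1300 and 108 and 89.6 FPKM against 100.1. Over the 29 line means, which share libraries and scale, the Spearman correlation of Nr1i3 with the 7 lower targets was 0.235 to 0.604. Without IL-519 it was 0.151 to 0.564. These 7 were picked by their calls in IL-519, and the other targets and all genes were not correlated in the same way. The part of CAR in their levels was not tested.

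**Figure D4:**
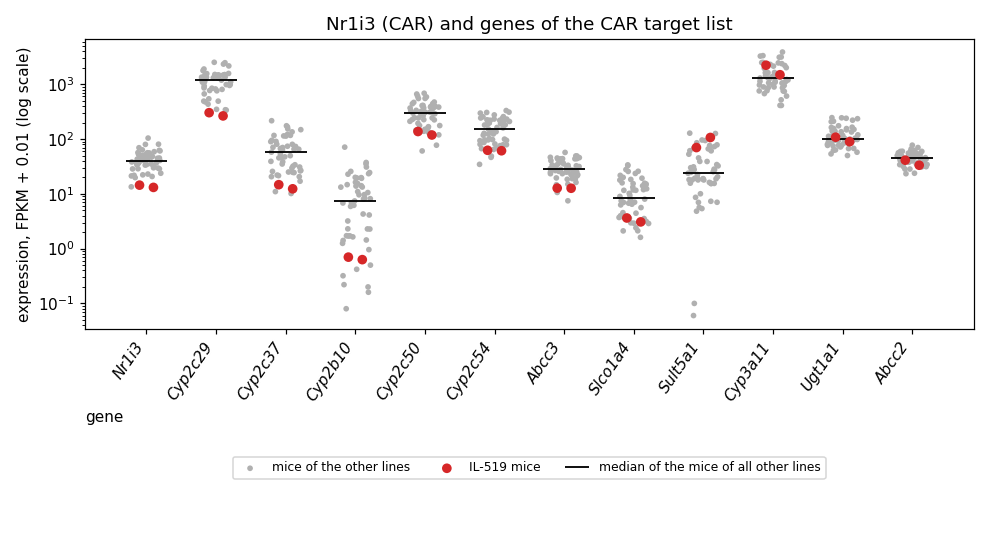
Expression in every mouse (y axis, FPKM + 0.01, log scale) of Nr1i3, the 7 CAR targets called lower, Sult5a1, called higher, and 3 targets not called, with IL-519 in red, the other lines in grey and a black bar at the median of the 53 other mice. For Cyp2c29 both red points lie under all grey points, and for the rest they do not.

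The 250 bases before the transcription start of Cyp2c29 are shown because this target was below the range. The nuclear receptor half-site AGGTCA is in capitals. The sequence is from RefSeq (GRCm38.p6) and was found once, unchanged, on the plus strand of NCBI build 37 at chr19:39361325-39361574, within the bounds of the gene in the annotation used. The half-site, on either strand, was in 14.02% of 32851 promoters of this length.
Cyp2c29: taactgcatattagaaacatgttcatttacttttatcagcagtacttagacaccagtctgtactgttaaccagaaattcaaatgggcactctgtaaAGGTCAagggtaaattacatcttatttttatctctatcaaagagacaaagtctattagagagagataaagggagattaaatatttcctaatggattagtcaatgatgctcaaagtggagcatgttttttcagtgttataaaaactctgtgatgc

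Immediate early genes were higher in IL-519. Of 21 tested, 17 were called higher and 0 lower, against 8.76% and 5.18% of all genes, with a median log2 fold change of 2.53 against 0.01. None was a member, since in each at least 1 other mouse was as high as the lower IL-519 mouse. Against the lines under 9 weeks only, 16 were called higher. The 250 bases before the start of 3 of them are shown as examples that hold a motif searched, from the same source and build. Capitals mark TGACG, the core of the cyclic AMP response element, in Fos (chr12:86814590-86814839, plus strand), the CArG box known to bind serum response factor in Zfp36 (chr7:29164248-29164497, minus strand) and TGACGTCA in Btg2 (chr1:135975733-135975982, minus strand). The Zfp36 window overlaps the annotated start of its gene, and the Fos and Btg2 windows lie before theirs.
Fos: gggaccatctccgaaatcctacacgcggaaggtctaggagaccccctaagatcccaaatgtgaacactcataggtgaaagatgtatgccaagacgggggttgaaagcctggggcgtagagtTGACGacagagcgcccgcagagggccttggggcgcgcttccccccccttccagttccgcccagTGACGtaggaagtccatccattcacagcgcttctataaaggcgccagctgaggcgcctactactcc
Zfp36: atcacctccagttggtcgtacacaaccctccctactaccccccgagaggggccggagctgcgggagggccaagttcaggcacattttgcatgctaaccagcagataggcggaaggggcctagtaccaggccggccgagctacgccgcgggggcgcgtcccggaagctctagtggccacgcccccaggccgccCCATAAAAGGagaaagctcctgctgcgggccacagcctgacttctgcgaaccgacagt
Btg2: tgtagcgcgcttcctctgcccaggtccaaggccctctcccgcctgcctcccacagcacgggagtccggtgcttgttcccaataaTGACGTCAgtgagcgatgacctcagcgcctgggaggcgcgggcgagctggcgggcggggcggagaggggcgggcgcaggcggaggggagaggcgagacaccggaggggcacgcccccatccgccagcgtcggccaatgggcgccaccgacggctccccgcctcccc
Of the 22 listed early genes 18 had a promoter in the table. On either strand, 10 held TGACG, 2 held TGACGTCA, which contains it, and 2 held a CArG box, in any of their promoters, while those of Jun, Jund, Ier3, Klf6, Gadd45a, Gadd45b and Gadd45g held none of these. Of all 32851 promoters, 17.8%, 1.55% and 1.47% held them. These shares count single promoters and not genes, so the units differ, and a match is no evidence of binding.

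Fos, a subunit of the AP-1 transcription factor, was at 71.8 and 67.04 FPKM against 0.07 to 93.5 FPKM with a median of 0.35 (log2 fold change 7.01 ± 0.29, edgeR adjusted p = 3.33e-17). A single other mouse was as high as the IL-519 pair. Jun and Junb, its partners, were at 93.3 and 31.4 FPKM and 83.04 and 46.2 FPKM against medians of 3.61 and 7.55. Atf3, a stress-induced factor, was at 30.6 and 2.54 FPKM against a median of 0.55. The pair was close for Fos and far apart for Atf3.

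Egr1, a zinc finger factor, was at 191 and 174 FPKM against 0.22 to 215 FPKM with a median of 2.09 (log2 fold change 5.60 ± 0.41, edgeR adjusted p = 2.56e-11). Ier2 was at 82.4 and 69.1 FPKM against a median of 10.2 (log2 fold change 2.84 ± 0.12, edgeR adjusted p = 3.33e-17). Among genes that dampen signals, Zfp36, which speeds the decay of unstable transcripts, was at 209.7 and 132 FPKM against 13.6 to 171 FPKM. Btg2, an antiproliferative gene, was at 93.7 and 38.9 FPKM against 1.01 to 147 FPKM, and Dusp1, a phosphatase of MAP kinases, at 39.4 and 63.7 FPKM against 2.64 to 62.9 FPKM. The same IL-519 mouse had the higher value in 16 of the 17 genes.

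Line IL-521, 2 mice aged 9.9 weeks, also had high levels. Its mean was at or above the lower IL-519 mouse in 16 of the 17 genes, followed by IL-2126 with 11, IL-1513 with 7 and IL-4141 and IL-4457 with 6 each. In IL-521, Fos was at 42.3 and 93.5 FPKM, Egr1 at 208 and 215 FPKM and Zfp36 at 171 and 165 FPKM. The numbers in the titles of the IL-519 and IL-521 mice are consecutive, and the part of tissue collection was not tested, since the labels give no collection time. In IL-519 against IL-521 alone, a comparison added after the values were seen, 842 genes (7.46%) were higher and 745 (6.6%) lower. Of the 17 early genes 2 were called, both lower in IL-519, the matricellular gene Cyr61 (10.6 and 3.32 FPKM against 41.7 and 34.3 in IL-521, log2 fold change -2.19 ± 0.52, edgeR adjusted p = 0.00498) and the orphan nuclear receptor gene Nr4a1 (4.06 and 2.73 FPKM against 10.4 and 38.99, log2 fold change -2.58 ± 0.76, edgeR adjusted p = 0.0204). For Fos the difference was 0.30 ± 0.66 on the log2 scale (± SE), too wide to call the lines alike.

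**Figure D5:**
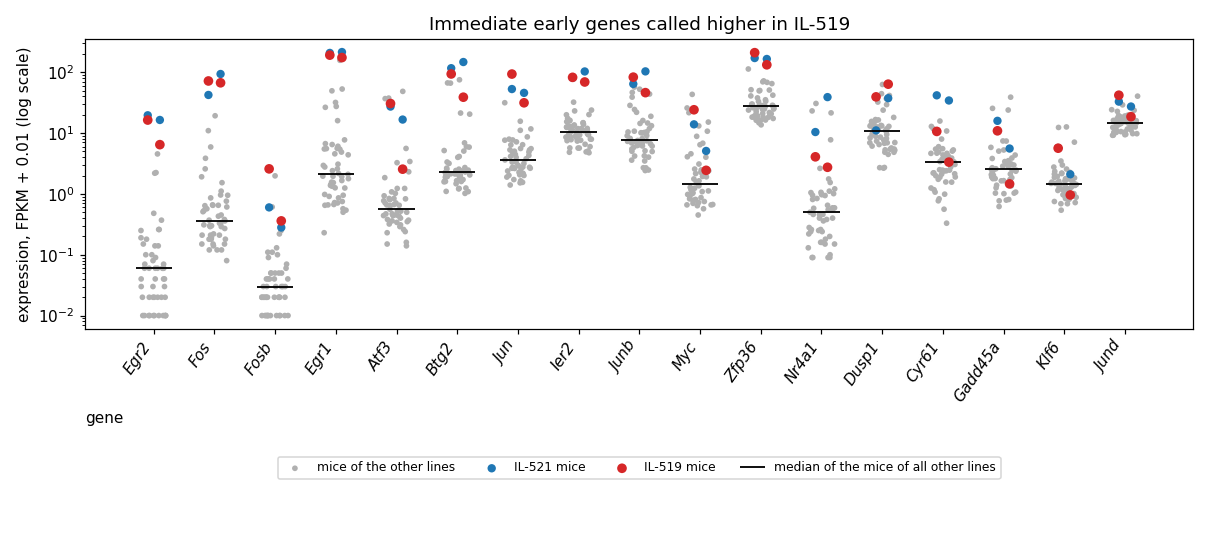
Expression in every mouse (y axis, FPKM + 0.01, log scale) of the 17 immediate early genes called higher, with IL-519 in red, IL-521 in blue, the other lines in grey and a black bar at the median of the 53 other mice. For Egr1 the red and blue points lie above all grey points.

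Without IL-521, 18 early genes were called. Without the IL-519 mouse that had the higher values 10 were, without the other 17, and with line sums 0. Of the members outside the range, 13 of the 15 above and 60 of the 94 below were called between IL-519 and IL-521. Over all genes the shares were 7.46% higher and 6.6% lower. By the rule every member lay beyond both IL-521 mice, so these calls are no independent support. Cav1 was at 0.86 and 1.54 FPKM in IL-521, Gdf15 at 0.64 and 1.45 FPKM and Lcp1 at 27.5 and 32.95 FPKM.

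Markers of sinusoidal endothelial cells, which line the liver capillaries, were lower. Of 10 tested, 8 were called lower and 0 higher, against 5.18% and 8.76% of all genes, with a median log2 fold change of -0.89. Clec4g, a lectin of these cells, was at 6.57 and 8.63 FPKM against 5.31 to 38.7 FPKM with a median of 18.2 (log2 fold change -1.08 ± 0.31, edgeR adjusted p = 0.0188). Stab1, a scavenger receptor, was at 3.68 and 3.82 FPKM against a median of 6.02 (log2 fold change -0.80 ± 0.20, edgeR adjusted p = 0.00512). The summed level of the 10 markers was 26.1 and 31.2 FPKM against 24.5 to 119 FPKM (median 55.05). The endothelial receptor gene Tie1, no listed marker, was a member, at 0.77 and 0.97 FPKM against 1.14 to 5.01 FPKM. So was the growth factor gene Vegfb, at 3.47 and 3.77 FPKM against 4.06 to 11.7 FPKM. These unlisted genes were picked after their values were seen, and Cav1, given above, lay above the range. Against IL-521 alone none of the 10 markers was called, nor was Tie1 (log2 fold change -0.54 ± 0.28, edgeR adjusted p = 0.217). In bulk tissue, fewer cells of a type and less RNA per cell cannot be told apart. Without 1 or the other IL-519 mouse 0 or 3 of the markers were called lower.

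Genes of the interferon response were higher in part. Of 43 tested entries 14 were called higher and 0 lower, against 8.76% and 5.18% of all genes, with a median log2 fold change of 0.43, and 6 were called on the FPKM scale. Cxcl10, a chemokine, was at 13.4 and 1.97 FPKM against a median of 1.42 (log2 fold change 2.38 ± 0.46, edgeR adjusted p = 0.000539). Psmb9, an immunoproteasome subunit, was at 18.3 and 24.2 FPKM against 10.7 (log2 fold change 1.18 ± 0.23, edgeR adjusted p = 0.000689), and Isg15 at 14.4 and 18.7 FPKM against 10.8. Without 1 or the other IL-519 mouse 7 or 3 were called higher. Of the MHC genes 6 of 21 were higher and 2 lower, against 8.76% and 5.18% of all genes, and with 1 or the other IL-519 mouse left out 3 or 2 were higher and 0 lower. Of these H2-Eb1, a class II chain, was at 0.34 and 0.32 FPKM against a median of 5.81 (log2 fold change -3.87 ± 1.02, edgeR adjusted p = 0.00974). MHC genes resemble each other, so these values are uncertain.

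Genes of the pericentral zone, the hepatocytes around the central vein where Wnt signals act, included 7 called higher of 17 and 1 lower, against 8.76% and 5.18% of all genes, with a median of 0.16. Glul, glutamine synthetase, was at 494 and 429 FPKM against a median of 287 (log2 fold change 0.91 ± 0.13, edgeR adjusted p = 7.78e-06). Rhbg, an ammonium transporter, was at 14.4 and 13 FPKM against 4.77 (log2 fold change 1.57 ± 0.18, edgeR adjusted p = 3.76e-07). Axin2, Tbx3, Lgr5, Slc13a3 and Rnf43 were called higher as well, and Cyp2c37, given above, lower. Of 11 tested cell cycle genes 6 were higher and 0 lower, against the same shares of all genes, with a median of 1.38. Ccnd1, a G1 cyclin, was at 16.4 and 10.1 FPKM against 4.07, and Cdkn1a, an inhibitor of cyclin-dependent kinases, was at 7.99 and 12.7 FPKM against 1.67 (log2 fold change 2.64 ± 0.39, edgeR adjusted p = 1.27e-05). Without 1 or the other IL-519 mouse, 4 of the pericentral genes were called higher in each case, and 1 or 5 of the cell cycle genes.

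Of the study's 40 drug disposition genes, a list that the study picked on these samples and that is no independent evidence of direction, 5 were called higher and 10 lower, against 8.76% and 5.18% of all genes. With 1 or the other IL-519 mouse left out 5 were called higher in each case and 2 or 3 lower. Ugt1a10, a glucuronosyltransferase, was at 98.8 and 103 FPKM against a median of 3.24 (log2 fold change 4.50 ± 0.10, edgeR adjusted p = 3.67e-24). Ugt3a2 was at 8.77 and 4.71 FPKM against 73.5 (log2 fold change -2.90 ± 0.46, edgeR adjusted p = 4.41e-05). Gsta2, a glutathione transferase, was at 13.2 and 8.1 FPKM against 32.7 (log2 fold change -1.66 ± 0.46, edgeR adjusted p = 0.0135). None of the 40 genes lay outside the range of the other mice. In the Nrf2 target list 0 of 30 were higher and 6 lower, among them Gsta2 and Gsta4, against 8.76% and 5.18% of all genes, and with either IL-519 mouse left out 1 was lower. Among 25 transporters 2 were higher and 4 lower, and 0 or 1 lower with 1 or the other mouse left out. Of 37 nuclear receptors and transcription factors 2 were higher, namely Cebpb and Prox1, and 1 lower, Nr1i3, which was picked beforehand. This count and that of the transporters are to be read against 8.76% and 5.18% of all genes.

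In the acute phase list 5 of 34 were called higher and 1 lower, against 8.76% and 5.18% of all genes, and with 1 or the other IL-519 mouse left out 1 or 3 were called higher and 0 lower. Hamp2, a gene of the hepcidin family, was at 3016 and 4477 FPKM against a median of 449 (log2 fold change 2.83 ± 0.37, edgeR adjusted p = 2.77e-06). Mt2, a metallothionein, was at 478 and 467 FPKM against 74.7 (log2 fold change 2.92 ± 0.74, edgeR adjusted p = 0.00729). Serpina3m was called lower. Of the heat shock and chaperone genes 5 of 32 were higher and 0 lower, with Hspa8 at 661 and 388 FPKM against 232, and without 1 or the other IL-519 mouse 0 or 5 were. Of 18 clock genes Arntl was higher and Per3, Tef and Usp2 were lower, and with 1 or the other mouse left out 0 were lower. The labels give no time of day. The heat shock and clock counts, too, are to be read against 8.76% and 5.18% of all genes. On log2(FPKM + 1), 1 acute phase gene was called higher and 2 lower. Of the heat shock genes 2 were called higher and 0 lower on that scale, and of the clock genes 1 and 5.

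The remaining lists had few calls, to be read against the 8.76% called higher and 5.18% lower of all genes. Of the 38 genes of fatty acid oxidation 3 were higher, of 25 of cholesterol synthesis 2, of 25 of fatty acid synthesis 1 and of 24 of bile acids 2, with 0 lower in each. Glucose metabolism had 1 higher and 1 lower of 25, the growth hormone-dependent male-biased genes 2 and 1 of 34, female-biased genes 4 and 1 of 25, and amino acid catabolism 2 and 3 of 40. Complement and coagulation had 1 higher of 43, apolipoproteins 1 of 27 and Ah receptor targets 1 of 7. Iron handling had 2 higher and 2 lower of 17. Igfbp1, an insulin-repressed binding protein, was at 274 and 196 FPKM against a median of 29.2 (log2 fold change 2.61 ± 0.47, edgeR adjusted p = 0.000233). Of the other markers, 1 of 11 hepatocyte entries (Serpina1c) was higher, 1 of 7 pancreas genes (Cela1) was lower, none of the 8 stellate cell and fibroblast genes was called lower, and none of the 3 cholangiocyte, 3 lymphocyte, 5 neutrophil, 5 blood, 4 adipose or 2 gut genes was called. The summed level of the blood markers was 455 and 1361 FPKM against 446 to 4529 FPKM (median 1375).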

How the data were processed

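RNA of 55 livers was sequenced by the authors (TruSeq Stranded mRNA, paired 50-base reads), aligned to mm9 with Bowtie 2 v2.1.0 and quantified with RSEM v1.2.18 and Ensembl 67. The deposited files hold expected counts, TPM, FPKM and the isoform percent of each gene, as the authors made them. RSEM was run at default parameters, which do not use strand. Fragments in sequence shared by a gene and an overlapping or antisense partner can therefore not be told apart by strand. Positions and symbols came from Ensembl 65 (same build). Expected counts were rounded and fitted with edgeR 4.0.16 (R 4.3.3; TMM, line as factor, quasi-likelihood test, Benjamini-Hochberg over 11284 genes). Library depth was 20542671 to 33953036 fragments in the other mice. Alternatives used DESeq2 1.42.0 and limma 3.58.1, with fits tested on simulated data.

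The rule for naming genes took up to 14 of the most changed protein-coding members in each direction, which above the range meant all 10. It also took members in the lists, the 3 largest stretches and Nr1i3, which was known beforehand to be lowest in IL-519. Other genes, list members among them, were named after their values were seen. The members and the 25 gene lists and 11 marker lists were chosen with earlier results of these data known. 1 gene above the range is not reported here.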

Additional observations from a re-analysis of the deposited data

How the results depend on the processing

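No paired analysis was possible because the labels carry no replicate numbers that tie mice across lines. The fit reported called 1573 of 11284 genes (989 higher, 584 lower). Over the same genes 376 were called higher and 1524 lower with limma on log2(FPKM + 1), and 390 and 1559 with log2(FPKM + 0.1). With line sums as units 4 were called (3 higher, 1 lower), and all 4 were outside the range. Against lines under 9 weeks only, 599 genes were outside the range (102 above, 497 below) and 331 of them were called (98 and 233). With no filter on low values 27 were called and above. In place of 109 genes outside the range (15 above, 94 below), there were 42 above and 37 below with TMM-scaled counts, 62 (26 and 36) with FPKM over the fragments outside the Mup cluster, 638 (55 and 583) with line means, 11 (4 and 7) at least 1.5 times beyond, and 8 above with a mean FPKM of at least 2. With a mouse of IL-519 or another line left out, 400 to 1757 genes were called (309 to 1122 higher, 91 to 635 lower), 74 to 134 were called and outside (15 to 47 above, 48 to 114 below), and 109 to 317 were outside (15 to 51 above, 94 to 266 below). The lowest counts of calls were without mouse 1 of IL-519 (400) and without mouse 2 (633). Isoform shares outside numbered 52, 0 at 10 or more percentage points beyond, and 447 to 460 with a single IL-519 mouse. Of 34 genes named by rule none reversed. Of these, 31 lost their call with line sums, 8 without mouse 1 and 6 without mouse 2. DESeq2, RLE scaling, body weight as a covariate and leaving out the Mup genes kept the total called within 1.5 times. No alternative tested counting depth.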

Other observations

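On counts scaled to TMM library sizes, 27 genes lay above all other mice that did not with FPKM, and the genes named here were chosen after their values were seen. Nfkbia, the inhibitor of NF-kappaB, was at 37.4 and 29.4 FPKM against 8.9 to 30.3 FPKM with a median of 17.3 (log2 fold change 1.06 ± 0.16, edgeR adjusted p = 1.81e-05). Nagk, the kinase that recycles N-acetylglucosamine, was at 17.98 and 17.9 FPKM against 5.16 to 18.8 FPKM (log2 fold change 1.22 ± 0.20, edgeR adjusted p = 9.51e-05). Gbp4, an interferon-induced guanylate binding protein gene, was at 3.49 and 4.69 FPKM against a median of 0.64 (log2 fold change 2.64 ± 0.48, edgeR adjusted p = 0.000273). Isoc2a was at 106 and 113 FPKM against 32.4 to 119.5 FPKM (log2 fold change 0.98 ± 0.09, edgeR adjusted p = 1.76e-09). In all 4 the highest other mouse exceeded at least 1 of the IL-519 mice on the FPKM scale. Glul, glutamine synthetase, belonged to these genes too.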
